A study of Homo sapiens with 40 samples.

Results

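JAG1 KO clone 72 was compared with MYO10 KO clones 98 and 99, over all genes and with the requirement that both MYO10 KO clones differ from clone 72 in the same direction. The comparison used 12 of the 40 RNA sequencing libraries of the series, 4 cultures labelled as biological replicates from each of the 3 clones. All 3 are clonal sublines of H1299, an established human non-small cell lung carcinoma line, were treated with CRISPR-Cas9 and, by the title of the series, derive from leader cells, which head groups of cells that invade together. The genotype label of clone 72 is JAG1 KO, and that of clones 98 and 99 is MYO10 KO. WT clones 38 and 75, which went through editing and carry the label MYO10 JAG1 WT, the leader line and JAG1 KO clone 35 give levels for orientation, with 4 cultures each. The sources used here give neither the guide sites nor the sequence of the edited alleles. Clone 72 alone stood for JAG1 KO in the comparison, so its genotype and its identity as a clone cannot be told apart. P-values measure the spread between cultures of a clone.

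JAG1 encodes Jagged-1, a membrane ligand of Notch receptors. Ligand on one cell and receptor on its neighbour trigger cleavage of the receptor, whose intracellular part joins the DNA-binding protein RBPJ and turns on genes of the HES and HEY families. MYO10 encodes myosin-X, a motor protein that moves to the tips of filopodia, the thin actin-filled protrusions with which cells probe the matrix ahead of them. The comparison therefore sets a clone labelled KO for a Notch ligand against clones labelled KO for a filopodial motor, all sublines of H1299.

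Of 19703 genes tested, 1161 were higher in clone 72 than in both MYO10 KO clones (5.89%) and 2320 were lower (11.8%), together 3481 (17.7%). Calls rest on edgeR's quasi-likelihood test, with the larger p of the 2 clone pairs, a Benjamini-Hochberg adjusted p under 0.05 and a mean log2 fold change of at least 1 in size. Taken singly, clone 72 differed from clone 98 at 4359 genes and from clone 99 at 4348 genes. The MYO10 KO clones, which share a genotype label, differed from each other at 1882 genes (9.55%). Clone 72 differed from clone 35, which carries its label of JAG1 KO, at 4138 genes, nearly as many as from either MYO10 KO clone. With a log2 fold change of at least 1 required in each pair, 850 genes were higher and 2037 lower, and among genes named here FARP1, HEY2, HLA-C, ITGAM, MMP9, MYO1E, NDUFA10, OAS3, PLAU, SMAD3, TGFBR2 and TPM1 were under 1 in size over 1 of the clones. Levels are in CPM, counts scaled to the normalized size of the library, fold changes are clone 72 over the mean of clones 98 and 99 on the log2 scale, and each is given with its standard error. Library totals of the 12 cultures ran from 40265378 to 43683804 counts. In bulk RNA, fewer cells that express a gene and less RNA per cell cannot be told apart.

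**Figure D1:**
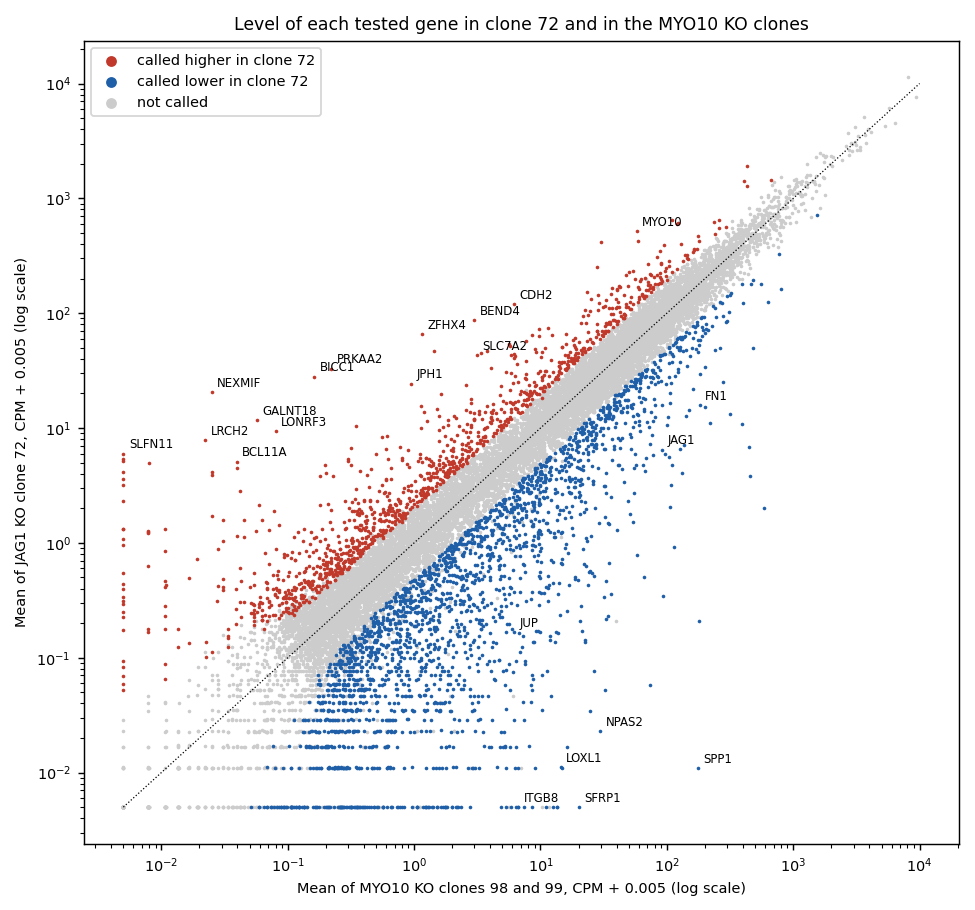
Mean level of each of the 19703 tested genes in clone 72 (vertical axis) against the mean of MYO10 KO clones 98 and 99 (horizontal axis), in CPM + 0.005 on log scales, with genes called higher in clone 72 in red, called lower in blue and the others in grey. The 2320 lower genes include a row at the bottom that had no count in clone 72, and SLFN11 sits at the left edge with no count in the MYO10 KO clones.

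The targeted genes followed the labels. JAG1, on chromosome 20 (chr20:10637684-10673999, GRCh38), had 6.36, 6.58, 6.85 and 6.16 CPM in the 4 clone 72 cultures, against 72.8, 70.5, 100.4 and 78.2 CPM in clone 98 and 72.2, 97.9, 116 and 121 CPM in clone 99. No clone 72 value reached those of the MYO10 KO clones (log2 fold change -3.80 ± 0.19, adjusted p = 1.5e-16), and WT clones 38 and 75 averaged 44.2 ± 9.63 and 40.5 ± 1.38 CPM (SD, n = 4 each). MYO10, on chromosome 5 (chr5:16661907-16936288), had 495, 534, 518 and 527 CPM in the 4 clone 72 cultures, against 63.0, 55.4, 67.8 and 67.6 CPM in clone 98 and 47.6, 49.1, 52.2 and 59.1 CPM in clone 99. The groups did not overlap (log2 fold change 3.17 ± 0.12, adjusted p = 3.7e-17). WT clones 38 and 75 averaged 491 ± 79.9 and 441 ± 66.9 CPM, nearer to clone 72 than to the MYO10 KO clones. Residual reads of an edited gene do not show whether protein is made, and whether they lie outside the edited stretch was not tested.

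N-cadherin and the basic amino acid transporter SLC7A2 were higher in clone 72, and fibronectin and plakoglobin were lower. CDH2, which encodes N-cadherin, the adhesion molecule typical of mesenchymal cells, had 118, 118, 119 and 124 CPM in the 4 clone 72 cultures, against 0.0681, 0.224, 0.115 and 0.140 CPM in clone 98 and 12.1, 13.6, 10.99 and 12.3 CPM in clone 99. Clone 98 was far below clone 99, so that the log2 fold change of clone 72 was 9.74 over clone 98 and 3.29 over clone 99 (mean 6.51 ± 0.09, adjusted p = 9.3e-32). SLC7A2, a transporter of arginine and lysine, had 43.2, 45.0, 41.4 and 42.6 CPM in the 4 clone 72 cultures, against 2.25, 2.62, 2.54 and 3.28 CPM in clone 98 and 4.07, 3.59, 2.57 and 4.15 CPM in clone 99. Both MYO10 KO clones were below clone 72 (log2 fold change 3.80 ± 0.08, adjusted p = 2.9e-30) and below the WT clones, which averaged 53.0 ± 3.54 and 43.1 ± 2.01 CPM. FN1, which encodes fibronectin, a matrix protein bound by integrins, had 14.7, 16.7, 15.4 and 16.2 CPM in the 4 clone 72 cultures, against 211, 257, 216 and 141 CPM in clone 98 and 101.3, 134, 301 and 90.8 CPM in clone 99. The cultures of clones 98 and 99 overlapped each other, and all 8 were above clone 72 (log2 fold change -3.51 ± 0.28, adjusted p = 3.9e-11). JUP, which encodes plakoglobin, a catenin of desmosomes and adherens junctions, had 0.270, 0.165, 0.0948 and 0.118 CPM in the 4 clone 72 cultures, against 6.15, 9.20, 8.55 and 9.78 CPM in clone 98 and 4.76, 4.43, 3.04 and 3.49 CPM in clone 99. The groups did not overlap (log2 fold change -5.13 ± 0.27, adjusted p = 1.5e-16). With counts summed per clone, so that the clone is the unit, the fold changes of CDH2, FN1 and JUP did not pass (adjusted p = 0.23, 0.064 and 0.075, with 2 residual degrees of freedom), while that of SLC7A2 did. The fold changes were then 4.27 for CDH2, -3.52 for FN1 and -5.26 for JUP on the log2 scale, so that of CDH2 depends on how clones 98 and 99 are averaged.

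**Figure D2:**
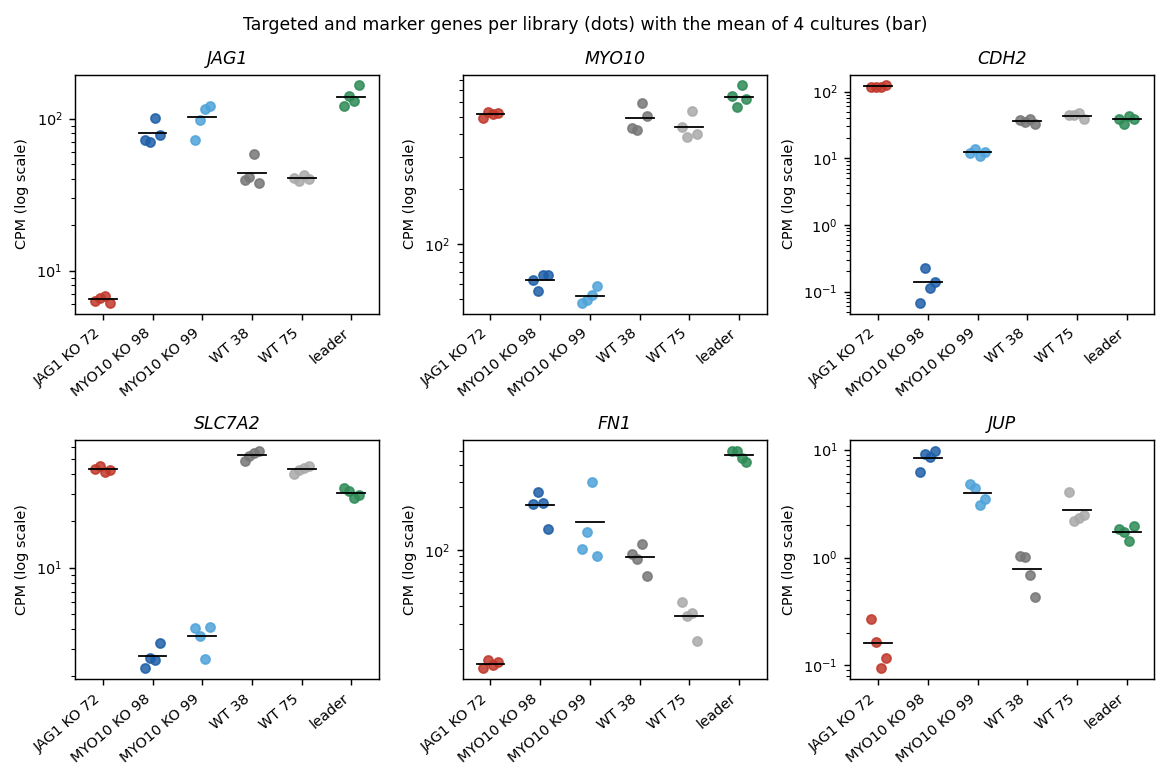
CPM on log axes of JAG1, MYO10, CDH2, SLC7A2, FN1 and JUP in each culture (dots) of clone 72, MYO10 KO clones 98 and 99, WT clones 38 and 75 and the leader line, with bars at the mean of 4 cultures. Clone 72 lies apart from both MYO10 KO clones in every panel, and CDH2 also separates clone 98 (mean 0.137 CPM) from clone 99 (mean 12.3 CPM). The markers were chosen with earlier results of these data known, so their separation is a description.

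The 12 genes highest in clone 72, ranked by the smaller of the fold changes over clones 98 and 99 among genes of at least 5 CPM, included SLFN11, TLE4, PRKAA2 and BICC1. SLFN11, which blocks stressed replication forks, had 6.06, 6.02, 5.90 and 5.83 CPM in clone 72 and no count in any of the 8 MYO10 KO cultures. TLE4, a corepressor of the Groucho family, had 5.37, 5.17, 5.90 and 5.13 CPM in clone 72 and likewise no count in the MYO10 KO cultures. Against a floor of 3 counts over the 8 cultures, SLFN11 was at least 691-fold and TLE4 at least 626-fold higher. A level near 0 is not evidence that a transcript is absent, since LDHA had at most 2 counts and ZYX at most 5 in each of these 12 libraries although both are usually abundant in cultured cells. PRKAA2, the catalytic alpha-2 subunit of the energy sensor AMPK, had 35.5, 32.9, 30.7 and 31.9 CPM in the 4 clone 72 cultures, against 0.204, 0.179, 0.0687 and 0.164 CPM in clone 98 and 0.347, 0.229, 0.283 and 0.251 CPM in clone 99. The WT clones were close to clone 72, with means of 31.8 and 29.9 CPM, and the fold change to the MYO10 KO clones was 7.29 ± 0.09 (adjusted p = 6.4e-38).

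BICC1, an RNA-binding protein, averaged 28.1 ± 1.61 CPM in clone 72, against 0.245 ± 0.153 in clone 98 and 0.0693 ± 0.00109 in clone 99 (log2 fold change 7.71 ± 0.15, adjusted p = 2.8e-31). The zinc finger transcription factors BCL11A and ZFHX4 had log2 fold changes of 7.11 ± 0.28 and 5.84 ± 0.13, and ZFHX4 averaged 65.4 ± 8.93 CPM in clone 72, against 1.32 ± 0.506 in clone 98 and 0.974 ± 0.249 in clone 99. NEXMIF, an X-linked gene of neurite growth, averaged 20.5 ± 0.392 CPM in clone 72, against 0.0170 ± 0.0215 in clone 98 and 0.0229 ± 0.0186 in clone 99 (log2 fold change 9.81 ± 0.21). The other genes among the 12 highest were LRCH2, GALNT18, which belongs to a family of enzymes that start O-linked glycosylation, LONRF3, BEND4 and JPH1, a junctophilin that ties the plasma membrane to the endoplasmic reticulum. Their log2 fold changes were 8.60, 7.75, 6.98, 4.88 and 4.70. These 12 genes were chosen for large fold changes over both MYO10 KO clones. That no clone 72 culture overlapped with a MYO10 KO culture follows from this choice.

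The genes lowest in clone 72 included secreted proteins, junction and cytoskeleton genes and regulators of cell fate. SPP1, which encodes osteopontin, a secreted ligand of integrins and CD44, had 1 count over the 4 clone 72 cultures, against 167, 182, 269 and 164 CPM in clone 98 and 171, 176, 201 and 76.8 CPM in clone 99. The ratio of the MYO10 KO mean to clone 72 was 29512, with a counting interval from 5297 to 1165680 (95%), and the WT clones were also near 0, at 0.0119 and 0.0464 CPM. SFRP1, a secreted antagonist of WNT ligands, had no count in clone 72, against 4.25, 6.99, 9.67 and 7.28 CPM in clone 98 and 17.1, 31.01, 57.1 and 27.7 CPM in clone 99. Over a floor of 3 counts it was at least 1127-fold lower in clone 72, and the WT clones averaged 11.9 and 4.40 CPM. SFRP1 was thus present in the WT clones and not detected in clone 72, whereas SPP1 was high in the MYO10 KO clones and near 0 in the WT clones.

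SOX17, a transcription factor of endoderm and endothelium, had no count in clone 72, against 4.05 ± 0.543 CPM in clone 98 and 8.69 ± 2.49 CPM in clone 99, at least 356-fold lower. SHROOM3, an actin-binding protein of apical constriction, had no count in clone 72, against 16.96 ± 1.09 CPM in clone 98 and 9.93 ± 0.896 CPM in clone 99, at least 752-fold lower. ITGB8, the integrin beta-8 chain that releases active TGF-beta, and KRT2, a keratin, likewise had no count in clone 72 and were at least 372-fold (ITGB8) and 373-fold (KRT2) lower. ARSD, SLCO2A1, RIN3 and PID1 completed the genes with 0 counts in clone 72, with fold changes of at least 759, 708, 324 and 300.3 in the same direction. NPAS2, a circadian transcription factor, had 3 counts in clone 72, against means of 27.8 ± 3.81 CPM in clone 98 and 31.7 ± 4.32 CPM in clone 99, a ratio of 1664 with a counting interval from 569 to 8068. LOXL1, which crosslinks elastin, had 1 count in clone 72, against 9.50 ± 1.55 CPM in clone 98 and 19.3 ± 1.48 CPM in clone 99, a ratio of 2417 with a counting interval from 434 to 95480. None of the 12 overlapped between the groups, which follows from their choice by fold change.

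**Figure D3:**
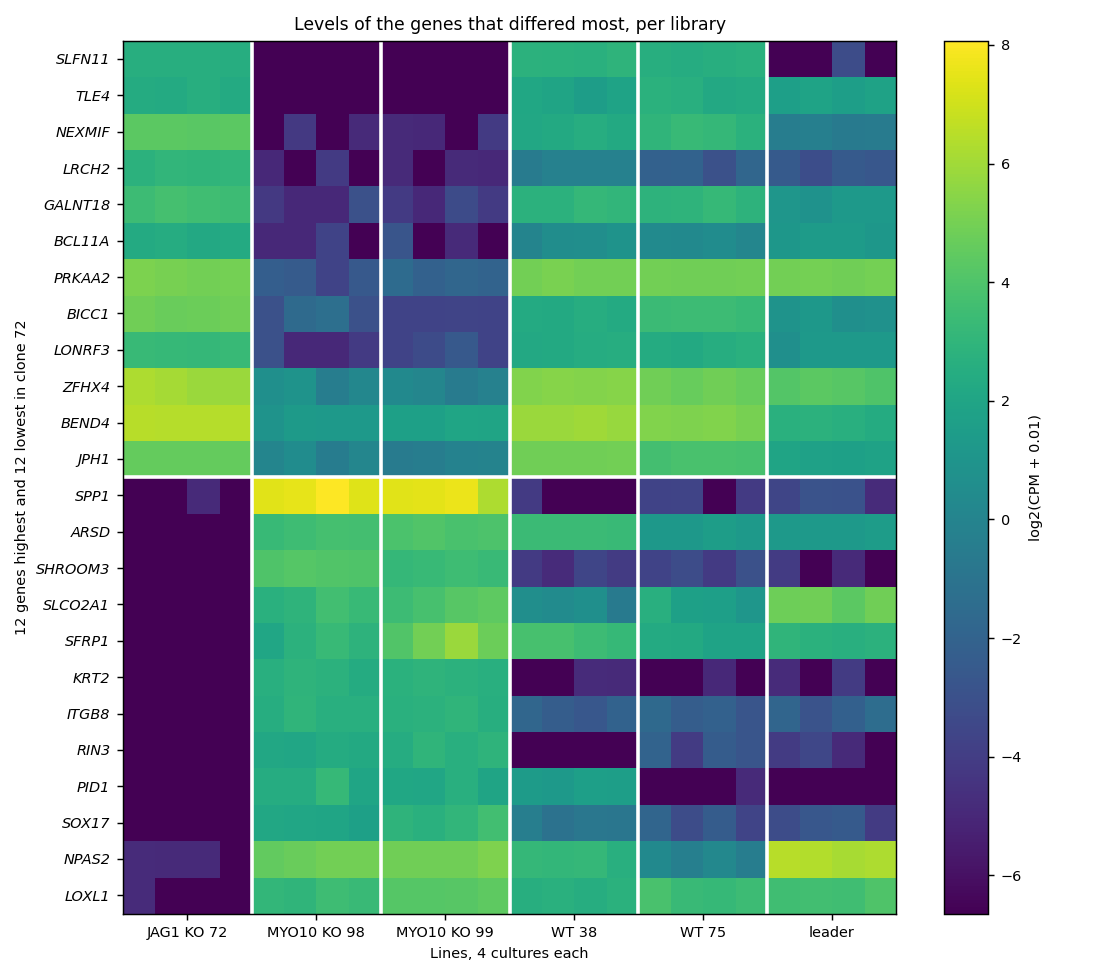
Levels of the 12 genes highest and the 12 lowest in clone 72, as log2(CPM + 0.01), in each culture of clone 72, MYO10 KO clones 98 and 99, WT clones 38 and 75 and the leader line. The upper block is bright in clone 72 and dark in the MYO10 KO clones, the lower block is the reverse, and SPP1, SHROOM3, KRT2, ITGB8 and RIN3 are also low in the WT clones.

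Other lines of the series lay unevenly between the groups. Of the 24 genes just described, JAG1 KO clone 35 was closer to the MYO10 KO clones than to clone 72 on the log2 scale at 21, WT clone 38 at 7, WT clone 75 at 6 and the leader line at 11. Over all 3481 called genes the shares closer to the MYO10 KO clones were 80.1% for clone 35, 43.6% for clone 38, 46.0% for clone 75 and 51.6% for the leader line. These are descriptions, since the genes were selected on clone 72 and the MYO10 KO clones. KRT8 illustrates clone 35, with a mean of 578 CPM there, against 3.79 CPM in clone 72 and 599.8 and 305 CPM in clones 98 and 99.

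Of the desmosome, keratin and tight junction genes tested, 62.5%, 42.9% and 33.3% were lower in clone 72, against 11.8% over all genes tested. Higher calls made up 12.5%, 14.3% and 4.76%, against 5.89%. Of 8 tested desmosome components, the plaque and cadherin proteins that anchor keratin filaments, 5 fell and 1 rose (median log2 fold change -1.73, against -0.01 over all genes tested). DSP, the plaque protein desmoplakin, had 0.0736, 0.0708, 0.0711 and 0.0706 CPM in the 4 clone 72 cultures, against 17.1, 18.6, 10.3 and 16.6 CPM in clone 98 and 7.99, 7.18, 5.85 and 6.59 CPM in clone 99. Every clone 72 culture was below every MYO10 KO culture (log2 fold change -7.13 ± 0.32, adjusted p = 5.6e-17), and WT clones 38 and 75 averaged 13.6 and 1.95 CPM. PERP, a tetraspan protein of desmosomes, averaged 4.09 ± 0.0826 CPM in clone 72, against 115 ± 4.59 in clone 98 and 148 ± 11.4 in clone 99 (log2 fold change -4.99 ± 0.07, adjusted p = 3.9e-41). DSC2, a desmosomal cadherin, went the other way, with 10.1, 10.7, 9.79 and 10.0 CPM in clone 72, against means of 1.68 and 1.70 CPM in clones 98 and 99 (log2 fold change 2.58 ± 0.12, adjusted p = 1.4e-18). DSC2 and CDH2 lie in a stretch of chromosome 18 whose genes were mostly higher.

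Of 7 tested keratins, 3 fell and 1 rose (median -0.25). KRT8 and KRT18, the pair of simple epithelia, had log2 fold changes of -6.82 ± 0.16 and -3.28 ± 0.16. KRT8 had 3.51, 3.37, 3.77 and 4.49 CPM in the 4 clone 72 cultures, against 626, 649, 594 and 529.9 CPM in clone 98 and 232, 305, 398 and 286 CPM in clone 99. KRT18 averaged 49.9 ± 2.30 CPM in clone 72, against 519 ± 52.9 in clone 98 and 450.0 ± 137 in clone 99. KRT15, a basal keratin, was higher in clone 72 (log2 fold change 1.48 ± 0.13, adjusted p = 1.5e-09). Of 21 tight junction and epithelial adhesion genes, 7 fell and 1 rose (median -0.89, or -0.68 with genes at 0 counts set to their floor). TJP3 and F11R, a scaffold and an adhesion protein of tight junctions, fell with log2 fold changes of -4.93 ± 0.43 and -2.33 ± 0.08, whereas the epithelial transcription factor GRHL1 rose (1.94 ± 0.11). CDH1, which encodes E-cadherin, was below the level needed for a test, with 1 count in clone 72, 10 in clone 98 and 30 in clone 99 over 4 cultures each. CDH3, P-cadherin, averaged 0.0660 ± 0.0423 CPM in clone 72, against 1.56 ± 0.179 in clone 98 and 1.66 ± 0.299 in clone 99 (log2 fold change -4.56 ± 0.35, adjusted p = 3.4e-14).

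Genes of the mesenchymal state moved in both directions, so that lower epithelial genes were not matched by uniformly higher mesenchymal genes. Of 21 tested, 4 rose and 8 fell (median -0.20). These are 19% higher and 38.1% lower, against 5.89% and 11.8% over all genes tested. Without genes of chromosome 18, an alternative chosen after seeing the data, 2 rose and 8 fell. ZEB2, a repressor of epithelial genes, had 40.1, 40.2, 37.7 and 43.4 CPM in the 4 clone 72 cultures, against 7.58, 6.67, 7.01 and 7.16 CPM in clone 98 and 7.02, 5.76, 5.09 and 3.12 CPM in clone 99. The groups did not overlap (log2 fold change 2.72 ± 0.09, adjusted p = 6.2e-23). TCF4, a basic helix-loop-helix factor on chromosome 18, also rose (log2 fold change 1.69 ± 0.05, adjusted p = 6.1e-24), as did TPM1, a tropomyosin (1.496 ± 0.16), and CDH2. ZEB1 (-0.20 ± 0.07) and TWIST1 (-0.17 ± 0.09) were not called. PRRX1 and PRRX2, homeobox factors of mesenchyme, fell, with PRRX1 at 0.967 ± 0.128 CPM in clone 72, against 21.9 ± 6.13 in clone 98 and 10.0 ± 2.37 in clone 99 (log2 fold change -3.94 ± 0.20, adjusted p = 7.7e-16) and a log2 fold change of -5.96 ± 0.22 for PRRX2. VIM, vimentin, averaged 1066 ± 30.8 CPM in clone 72, against 1897 ± 226 in clone 98 and 1696 ± 69.4 in clone 99, a log2 fold change of -0.75 ± 0.05 that passed the p threshold (adjusted p = 1.3e-14) and not the fold threshold.

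The extracellular matrix formed a large block of lower genes. Fibronectin-type and matricellular genes had 61.1% lower and 2.78% higher, against 11.8% and 5.89% over all genes tested. Of 36 fibronectin-type and matricellular genes tested, 22 fell and 1 rose (median -1.65, or -1.58 with genes at 0 counts set to their floor). THBS1, thrombospondin-1, had 0.834, 0.873, 0.758 and 0.635 CPM in the 4 clone 72 cultures, against 45.1, 69.9, 105 and 83.9 CPM in clone 98 and 9.01, 30.8, 53.8 and 64.1 CPM in clone 99. Cultures of both MYO10 KO clones varied widely, and all 8 were above clone 72 (log2 fold change -6.14 ± 0.50, adjusted p = 8.8e-11). The WT clones averaged 58.6 and 12.004 CPM. FBLN2, fibulin-2, averaged 0.203 ± 0.0506 CPM in clone 72, against 17.8 ± 3.74 in clone 98 and 23.4 ± 5.92 in clone 99 (log2 fold change -6.64 ± 0.38). MFAP5, a protein of microfibrils, had 2 counts in clone 72, against 14.9 ± 4.74 CPM in clone 98 and 17.7 ± 4.90 CPM in clone 99. NID2, a basement membrane nidogen, was the exception, with 46.2, 49.7, 45.9 and 46.2 CPM in the 4 clone 72 cultures, against 0.522, 0.8286, 0.642 and 0.608 CPM in clone 98 and 1.96, 1.55, 2.52 and 2.73 CPM in clone 99 (log2 fold change 5.29 ± 0.18, adjusted p = 5.0e-18). Its relative NID1 fell (-4.04 ± 0.25), so the nidogens changed in opposite directions.

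Lower calls made up 51.9% of collagens, 40% of lysyl oxidases, 45.5% of laminins and 42.9% of proteoglycans, against 11.8% over all genes tested. Higher calls made up 3.7%, 0%, 0% and 7.14%, against 5.89%. Of 27 collagen chains tested, 14 fell and 1 rose (median -1.35). COL9A3 (-7.04 ± 0.44), COL16A1 (-5.46 ± 0.44) and COL5A1 (-5.34 ± 0.50) fell most, from levels of only 2.18 and 1.12 CPM in the MYO10 KO clones for COL5A1. COL4A3, a basement membrane chain, rose (log2 fold change 1.12 ± 0.23, adjusted p = 0.00071). Among 5 lysyl oxidases, LOXL1 and LOXL4 fell (-1.55 ± 0.46 for LOXL4), and LOX was not called (0.04 ± 0.21). Of 11 laminin chains, 5 fell, with LAMB1 at 32.2 ± 1.23 CPM in clone 72, against 70.3 ± 6.05 in clone 98 and 105 ± 7.98 in clone 99 (log2 fold change -1.41 ± 0.09, adjusted p = 2.5e-12). Of 14 proteoglycans, 6 fell and 1 rose (median -1.28), and SDC1, syndecan-1, averaged 2.73 ± 0.201 CPM in clone 72, against 38.2 ± 3.98 in clone 98 and 27.8 ± 1.26 in clone 99 (log2 fold change -3.58 ± 0.12, adjusted p = 1.4e-23).

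Among integrins, focal adhesion genes and matrix proteases and inhibitors, 44.4%, 30.4% and 39.3% of tested genes fell, against 11.8% over all genes tested. Higher calls made up 5.56%, 0% and 7.14%, against 5.89%, and many genes were not called. Of 18 integrin chains, 8 fell and 1 rose (median -1.35). ITGA3, a laminin-binding chain, had 34.6, 34.8, 34.0 and 32.7 CPM in the 4 clone 72 cultures, against 101.1, 124, 171 and 131 CPM in clone 98 and 240.0, 259, 292 and 286 CPM in clone 99. The groups did not overlap (log2 fold change -2.47 ± 0.13, adjusted p = 1.1e-13). ITGB4, a beta chain of hemidesmosomes, had a log2 fold change of -2.64 ± 0.15, ITGAM rose (1.22 ± 0.10), and ITGB1, the chain shared by most matrix receptors, was not called (-0.12 ± 0.08). Of 23 focal adhesion genes, 7 fell and none rose in edgeR's test or in DESeq2, with 3 of them positive at an unadjusted p under 0.05. FHL1, a LIM-domain protein, averaged 10.8 ± 0.205 CPM in clone 72, against 350.2 ± 27.2 in clone 98 and 433 ± 23.9 in clone 99 (log2 fold change -5.17 ± 0.09, adjusted p = 1.9e-32), while VCL, vinculin, was not called (0.17 ± 0.07). Of 28 matrix proteases and inhibitors, 11 fell and 2 rose (median -1.32). TIMP2, an inhibitor of matrix metalloproteinases, averaged 3.18 ± 0.553 CPM in clone 72, against 105 ± 21.5 in clone 98 and 112 ± 7.57 in clone 99 (log2 fold change -5.09 ± 0.16, adjusted p = 2.6e-22), MMP2, a gelatinase, had 2 counts in clone 72, against means of 1.67 CPM in clone 98 and 2.35 CPM in clone 99. SERPINE2 had a log2 fold change of -5.64 ± 0.37, and the protease genes PLAU (1.37 ± 0.19) and MMP9 (1.19 ± 0.23) rose.

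With the clone as the unit fewer genes of several lists were called. Calls then numbered 9 lower for fibronectin-type and matricellular genes, 3 for collagens, 3 for integrins, 5 for matrix proteases and inhibitors, and 2 lower and 1 higher for desmosome components. Among signalling and transcription factor lists, 6 Notch targets, 2 WNT genes, 5 SOX genes, 1 HOX gene and 4 interferon-stimulated genes were then lower. None of these lists had a higher call. Over all 19703 genes, 247 were then called higher and 547 lower, so few higher calls are expected in lists of this size. The 1 lower call among 34 HOX genes is near the share of all genes.

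**Figure D4:**
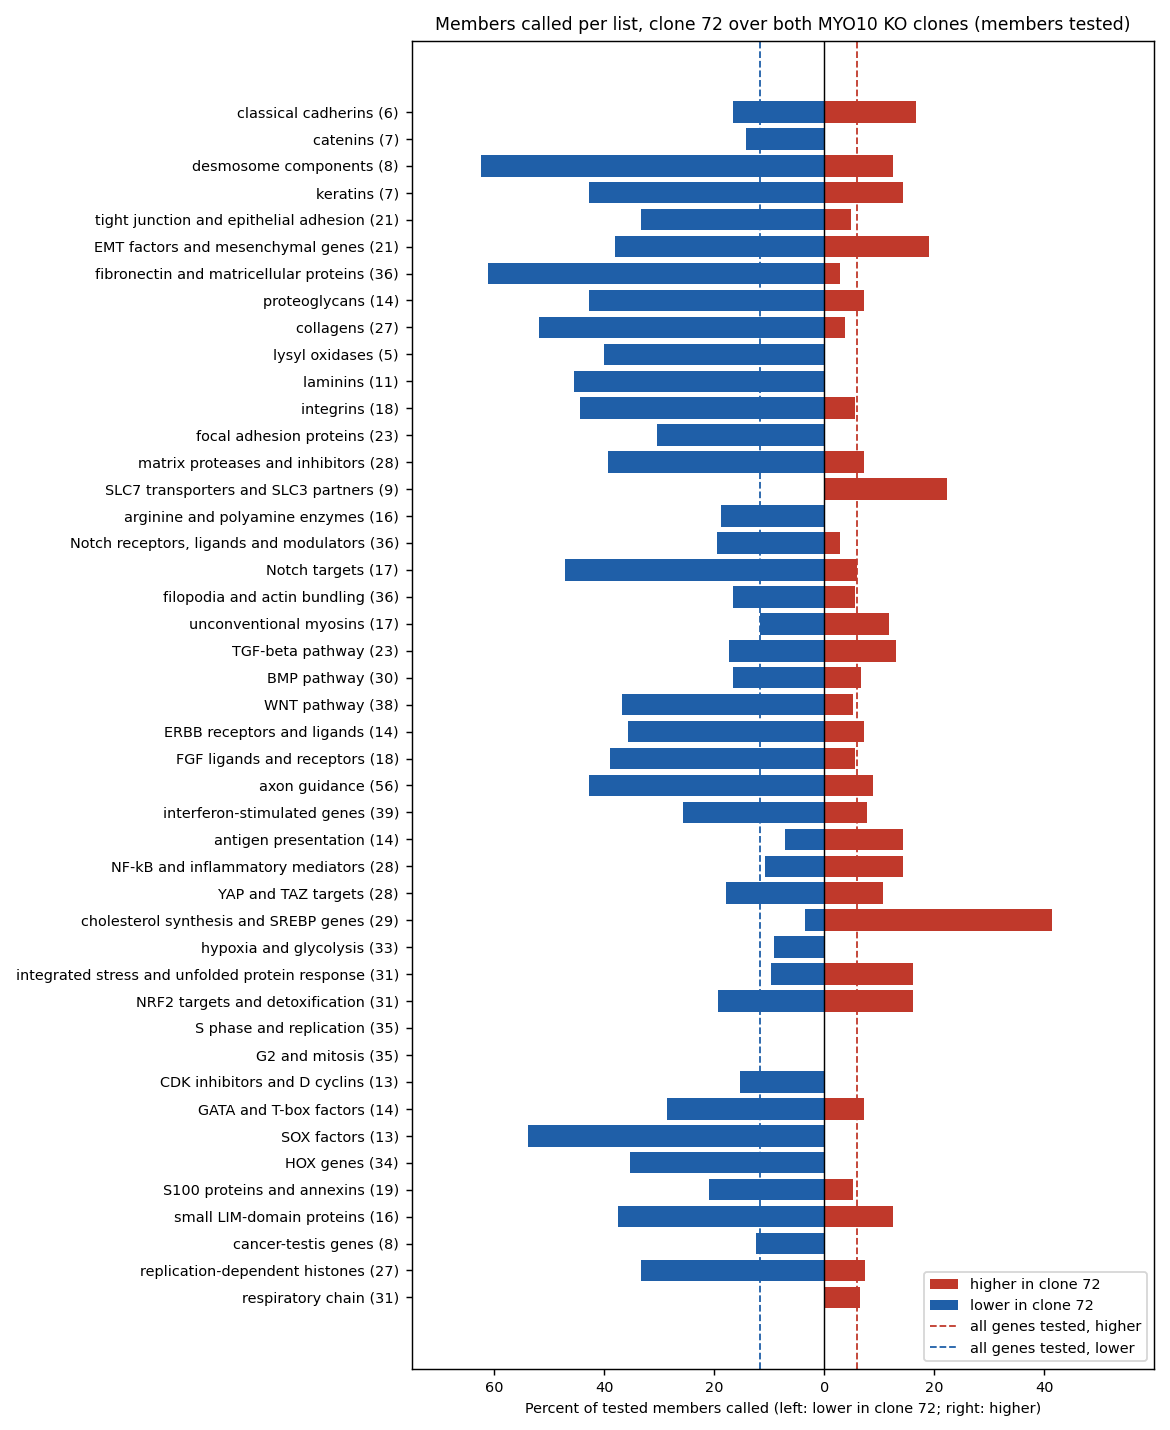
Percent of the tested members of each gene list called higher in clone 72 (right, red) or lower (left, blue), with the number tested in parentheses and dashed lines at the shares over all 19703 genes (5.89% higher, 11.8% lower). Cholesterol synthesis has the longest bar to the right, with 12 of 29 genes, and desmosome components and fibronectin-type genes the longest to the left, with 5 of 8 and 22 of 36.

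Several Notch receptors, ligands and targets were lower in clone 72. Of 36 receptors, ligands and modulators tested, 7 fell, JAG1 among them, and 1 rose (median -0.05). These are 19.4% lower and 2.78% higher, against 11.8% and 5.89% over all genes tested. NOTCH3 had 0.540, 0.637, 0.427 and 0.588 CPM in the 4 clone 72 cultures, against 15.8, 29.5, 31.9 and 24.1 CPM in clone 98 and 28.3, 26.6, 20.99 and 17.9 CPM in clone 99. The groups did not overlap (log2 fold change -5.47 ± 0.35, adjusted p = 3.5e-14), and the WT clones were between them at 2.19 and 2.19 CPM. NOTCH1 averaged 8.91 ± 0.936 CPM in clone 72, against 34.9 ± 3.07 in clone 98 and 20.4 ± 1.66 in clone 99 (log2 fold change -1.58 ± 0.07, adjusted p = 4.3e-17), whereas NOTCH2 was not called (0.30 ± 0.05), its values in clone 98 overlapping clone 72. JAG2, a second Jagged ligand, averaged 17.7 ± 0.512 CPM in clone 72, against 62.2 ± 6.60 in clone 98 and 71.4 ± 7.54 in clone 99 (log2 fold change -1.91 ± 0.11, adjusted p = 6.7e-15). DNER, a non-canonical ligand, and DTX4, a ubiquitin ligase of the pathway, had log2 fold changes of -2.02 ± 0.23 and -3.28 ± 0.24, and DLK1, another non-canonical ligand, had 1 count in clone 72, against means of 0.131 CPM in clone 98 and 0.353 CPM in clone 99. MIB1, the ubiquitin ligase that activates Notch ligands by driving their endocytosis, was the one that rose, with 686, 624, 633 and 643 CPM in the 4 clone 72 cultures, against 111, 113, 117 and 108 CPM in clone 98 and 111, 115, 102 and 100.8 CPM in clone 99 (log2 fold change 2.56 ± 0.05, adjusted p = 1.8e-33). MIB1 lies in the same stretch of chromosome 18 as CDH2.

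Of 17 Notch target genes tested, 8 fell and 1 rose (median -0.62), or 47.1% and 5.88%, against 11.8% and 5.89% over all genes tested. NOTCH3, described above as a receptor, is also among these 8. Where promoters were available, in 12 of the 17, the core RBPJ sequence GTGGGAA on either strand occurred within 250 bases before to 50 after the start in 4, HES1, HES4, HEYL and HEY2, against 6.28% of all 27305 RefSeq promoters. These 4 windows, from RefSeq on GRCh38.p14 and written 5′ to 3′ in the direction of the gene, show the matched letters in capitals (TTCCCAC is the opposite strand), because the genes differ in direction.
HES1 promoter, chr3:194135898-194136197, plus strand: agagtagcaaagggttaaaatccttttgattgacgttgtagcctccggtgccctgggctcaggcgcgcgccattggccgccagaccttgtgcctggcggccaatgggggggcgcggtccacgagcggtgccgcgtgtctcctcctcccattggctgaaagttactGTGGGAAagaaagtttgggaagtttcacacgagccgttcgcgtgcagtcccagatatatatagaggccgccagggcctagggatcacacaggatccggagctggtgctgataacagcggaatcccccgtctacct
HES4 promoter, chr1:1000048-1000347, minus strand: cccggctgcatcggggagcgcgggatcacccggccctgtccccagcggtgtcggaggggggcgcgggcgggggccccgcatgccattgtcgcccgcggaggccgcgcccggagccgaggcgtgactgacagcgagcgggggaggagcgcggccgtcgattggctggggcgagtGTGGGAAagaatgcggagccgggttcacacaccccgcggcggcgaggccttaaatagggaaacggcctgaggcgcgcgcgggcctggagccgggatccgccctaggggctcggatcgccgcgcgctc
HEYL promoter, chr1:39639594-39639893, minus strand: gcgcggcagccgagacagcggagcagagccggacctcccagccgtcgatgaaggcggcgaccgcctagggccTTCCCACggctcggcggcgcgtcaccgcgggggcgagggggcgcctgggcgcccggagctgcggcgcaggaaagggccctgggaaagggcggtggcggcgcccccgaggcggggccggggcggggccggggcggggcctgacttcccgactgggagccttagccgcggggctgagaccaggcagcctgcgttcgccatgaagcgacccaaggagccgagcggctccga
HEY2 promoter, chr6:125749382-125749681, plus strand: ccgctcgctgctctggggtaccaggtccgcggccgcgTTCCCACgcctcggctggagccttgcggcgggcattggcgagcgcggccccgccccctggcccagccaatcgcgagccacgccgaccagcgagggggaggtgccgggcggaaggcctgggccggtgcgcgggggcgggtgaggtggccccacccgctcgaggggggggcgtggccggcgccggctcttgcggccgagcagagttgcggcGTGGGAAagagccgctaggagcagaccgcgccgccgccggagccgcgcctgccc

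The RBPJ letters thus stood in the promoters of 3 genes that fell and of the 1 that rose. HES1, a transcriptional repressor and the classical target, had 26.2, 44.0, 35.1 and 26.1 CPM in the 4 clone 72 cultures, against 137, 81.3, 92.9 and 129.6 CPM in clone 98 and 117, 135, 162 and 118 CPM in clone 99. Clone 72 was lower without overlap (log2 fold change -1.88 ± 0.29, adjusted p = 1.8e-05). HES1 lies in a stretch at the end of chromosome 3 (PLAAT1 to LMLN) whose median log2 fold change was -1.01, with 20 of 40 genes lower. The WT clones, at 129 and 170.0 CPM, were nearer to the MYO10 KO clones than to clone 72. HES4 had 2.11, 2.81, 2.49 and 2.66 CPM in the 4 clone 72 cultures, against 31.5, 26.3, 45.3 and 29.4 CPM in clone 98 and 45.1, 43.1, 46.0 and 22.6 CPM in clone 99 (log2 fold change -3.84 ± 0.24, adjusted p = 5.5e-14). HEYL averaged 0.902 ± 0.188 CPM in clone 72, against 7.68 ± 1.04 in clone 98 and 6.01 ± 0.643 in clone 99 (log2 fold change -2.91 ± 0.15, adjusted p = 1.1e-18). HEY2 was higher in clone 72, at 4.20 ± 0.210 CPM in clone 72, against 1.67 ± 0.201 in clone 98 and 2.38 ± 0.305 in clone 99 (log2 fold change 1.07 ± 0.12, adjusted p = 4.2e-06). HEY2 lies at the end of a stretch of chromosome 6 (TRAF3IP2 to HEY2) whose median log2 fold change was 0.80, with 13 of 41 genes higher. NRARP, a feedback inhibitor of Notch, averaged 7.28 ± 0.493 CPM in clone 72, against 30.3 ± 2.31 in clone 98 and 19.6 ± 1.32 in clone 99 (log2 fold change -1.74 ± 0.09, adjusted p = 2.9e-16), a level in clone 72 close to the WT clones (7.85 and 8.37 CPM). SOX9 had a log2 fold change of -2.84 ± 0.11, GATA3 of -2.03 ± 0.14 and HES2, at under 1 CPM in all 3 clones, of -3.98 ± 0.51. A letter match is a description and does not mark a bound site.

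The lists of filopodia genes and myosins, to which MYO10 belongs, had 5.56% and 11.8% of tested members higher and 16.7% and 11.8% lower, against 5.89% higher and 11.8% lower over all genes tested. Of 36 filopodia and actin-bundling genes, 2 rose, MYO10 and FARP1 (1.13 ± 0.07), and 6 fell (median -0.12). FSCN1, fascin, which bundles actin in filopodia, had 23.5, 26.5, 26.2 and 25.5 CPM in the 4 clone 72 cultures, against 218, 281, 285 and 312 CPM in clone 98 and 292, 302, 268 and 263 CPM in clone 99. Every culture of clone 72 was lower (log2 fold change -3.45 ± 0.09, adjusted p = 1.3e-27) and also below the WT clones (155 and 111 CPM). EPS8L2 averaged 3.15 ± 0.379 CPM in clone 72, against 19.7 ± 3.00 in clone 98 and 21.1 ± 1.18 in clone 99 (log2 fold change -2.69 ± 0.12, adjusted p = 2.4e-21), and ESPN, espin, had no count in clone 72, against 0.273 and 0.415 CPM in the MYO10 KO clones. ENAH, an anti-capping protein at filopodial tips, was not called (-0.35 ± 0.04). Of 17 unconventional myosins, MYO10 and MYO1E rose and MYO5C and MYO7A fell, the other 13 not being called. MYO1E averaged 49.5 ± 1.38 CPM in clone 72, against 26.2 ± 1.97 in clone 98 and 21.8 ± 1.15 in clone 99 (log2 fold change 1.05 ± 0.08, adjusted p = 3.6e-11) and MYO5C 0.626 ± 0.112 CPM in clone 72, against 4.64 ± 0.427 in clone 98 and 3.11 ± 0.264 in clone 99 (log2 fold change -2.60 ± 0.15, adjusted p = 4.4e-16).

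More growth factor pathway genes fell than rose. Of the ERBB, FGF and WNT genes tested, 35.7%, 38.9% and 36.8% were lower, against 11.8% over all genes tested. Higher calls made up 7.14%, 5.56% and 5.26%, near the 5.89% over all genes tested. Of 14 ERBB receptors and ligands, 5 fell and 1 rose. TGFA, a ligand of EGFR, had 0.982, 1.39, 1.26 and 1.48 CPM in the 4 clone 72 cultures, against 32.1, 40.9, 47.8 and 49.7 CPM in clone 98 and 35.5, 38.4, 36.2 and 41.6 CPM in clone 99 (log2 fold change -4.97 ± 0.19, adjusted p = 1.6e-20). HBEGF fell as well (-2.37 ± 0.32), as did the receptor ERBB3 (-2.14 ± 0.22), while EGFR rose, at 138 ± 5.30 CPM in clone 72, against 60.4 ± 2.74 in clone 98 and 43.1 ± 9.26 in clone 99 (log2 fold change 1.44 ± 0.07, adjusted p = 2.8e-15). Of 18 FGF genes, 7 fell and 1 rose, with FGFR1 higher (1.21 ± 0.05) and FGFR3 lower (-2.44 ± 0.16). Of 38 WNT genes, 14 fell and 2 rose (median -0.54). AXIN2, a feedback target of beta-catenin, averaged 1.78 ± 0.238 CPM in clone 72, against 15.4 ± 1.41 in clone 98 and 12.5 ± 3.81 in clone 99 (log2 fold change -2.96 ± 0.16, adjusted p = 6.8e-18). RNF43, a ubiquitin ligase that removes WNT receptors, had 2 counts in clone 72, against means of 8.53 CPM in clone 98 and 0.940 CPM in clone 99. WNT5B rose, at 36.1 ± 1.90 CPM in clone 72, against 3.83 ± 0.550 in clone 98 and 9.28 ± 2.697 in clone 99 (log2 fold change 2.60 ± 0.13, adjusted p = 6.0e-13).

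Of 23 TGF-beta pathway genes, 3 rose and 4 fell (13% and 17.4%, against 5.89% and 11.8% over all genes tested). SMAD2 and SMAD7, which rose, lie on chromosome 18, where 33.8% of tested protein-coding genes were higher. Without genes of that chromosome, 1 TGF-beta pathway gene rose. SMAD2, a signal transducer on chromosome 18, had 351, 348, 341 and 348 CPM in the 4 clone 72 cultures, against 91.8, 88.8, 90.7 and 91.2 CPM in clone 98 and 92.2, 85.8, 84.9 and 85.1 CPM in clone 99 (log2 fold change 1.97 ± 0.04, adjusted p = 4.0e-32), and SMAD3 also rose (1.13 ± 0.10). SMAD7, an inhibitor of the pathway, passed the threshold narrowly (log2 fold change 1.52 ± 0.39, adjusted p = 0.025). Its call was lost on leaving out culture 1, 2 or 3 of clone 98 or culture 4 of clone 72, with adjusted p between 0.054 and 0.099. The receptor TGFBR2 fell (-1.16 ± 0.09). Of 30 BMP genes, 5 fell and 2 rose (16.7% and 6.67%), near the 11.8% and 5.89% over all genes tested, with the antagonist NOG at 0.546 ± 0.227 CPM in clone 72, against 29.5 ± 11.46 in clone 98 and 21.6 ± 17.6 in clone 99 (log2 fold change -5.52 ± 0.52, adjusted p = 6.8e-10) and BMPER higher (3.16 ± 0.26). BMP7 fell too, with 1 count over the 4 clone 72 cultures, against means of 12.2 CPM in clone 98 and 0.408 CPM in clone 99. Of 28 YAP and TAZ target genes, 3 rose and 5 fell (10.7% and 17.9%, median -0.09). AMOTL1, an angiomotin that binds YAP, averaged 0.226 ± 0.106 CPM in clone 72, against 33.5 ± 1.39 in clone 98 and 35.0 ± 0.657 in clone 99 (log2 fold change -7.22 ± 0.25, adjusted p = 9.9e-22), and CCN2 fell (-1.55 ± 0.31).

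Axon guidance genes, which also steer migrating cells, held 24 that fell and 5 that rose among 56 (median -0.74). These are 42.9% and 8.93%, against 11.8% and 5.89% over all genes tested. SEMA3F, a secreted semaphorin, had 0.0245, 0.0944, 0.0474 and 0.0235 CPM in the 4 clone 72 cultures, against 4.04, 4.93, 5.73 and 5.24 CPM in clone 98 and 10.5, 10.1, 14.2 and 13.3 CPM in clone 99 (log2 fold change -7.26 ± 0.32, adjusted p = 1.5e-20). SLIT2, a repellent ligand of ROBO receptors, averaged 0.148 ± 0.0904 CPM in clone 72, against 5.19 ± 1.86 in clone 98 and 9.28 ± 3.45 in clone 99 (log2 fold change -5.51 ± 0.33, adjusted p = 1.0e-15), while ROBO2 rose (2.45 ± 0.21). The receptor NRP2 fell (-4.63 ± 0.50), and SEMA3E rose (2.19 ± 0.16). With the clone as the unit, 7 of the lower calls and none of the higher calls passed.

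Apart from the targets and markers, cholesterol synthesis was the list with the largest share of higher genes. It had 41.4% higher and 3.45% lower, against 5.89% and 11.8% over all genes tested. Of 29 genes tested, 12 rose and 1 fell (median 0.78), and 9 of the higher calls also passed with the clone as the unit. HMGCS1, which makes the HMG-CoA that the pathway starts from, had 233, 232, 234 and 237 CPM in the 4 clone 72 cultures, against 50.9, 45.6, 51.5 and 59.9 CPM in clone 98 and 54.1, 57.4, 58.5 and 56.6 CPM in clone 99. Clone 72 was above every MYO10 KO culture (log2 fold change 2.11 ± 0.15, adjusted p = 9.7e-11), and the WT clones lay between, at 157 and 147 CPM. INSIG1, a sterol-sensing brake on the pathway, had 132, 135, 134 and 129 CPM in the 4 clone 72 cultures, against 22.02, 22.3, 19.0 and 27.9 CPM in clone 98 and 32.7, 26.8, 24.9 and 25.3 CPM in clone 99 (log2 fold change 2.41 ± 0.23, adjusted p = 5.4e-08). DHCR7, the last step of synthesis, averaged 106 ± 2.10 CPM in clone 72, against 26.7 ± 3.62 in clone 98 and 30.4 ± 2.79 in clone 99 (log2 fold change 1.89 ± 0.13, adjusted p = 2.5e-11), and the enzymes MSMO1 and SQLE had log2 fold changes of 1.78 ± 0.13 and 1.32 ± 0.08. TM7SF2, a sterol reductase, fell (log2 fold change -1.85 ± 0.18, adjusted p = 2.1e-09).

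The letters CCAAT, read by the factor NF-Y that works beside the SREBP factors, stood on either strand in the promoters of 17 of the 23 cholesterol genes with a promoter sequence and of 10 of the 11 called ones, against 35.7% of all promoters. The SREBP site TCACNCCAC stood in 1 of the 23, that of SREBF2, against 1.15% of all promoters. The windows of HMGCS1 and INSIG1, which had the largest fold changes in the list, are shown with these letters in capitals (ATTGG is the opposite strand).
HMGCS1 promoter, chr5:43313363-43313662, minus strand: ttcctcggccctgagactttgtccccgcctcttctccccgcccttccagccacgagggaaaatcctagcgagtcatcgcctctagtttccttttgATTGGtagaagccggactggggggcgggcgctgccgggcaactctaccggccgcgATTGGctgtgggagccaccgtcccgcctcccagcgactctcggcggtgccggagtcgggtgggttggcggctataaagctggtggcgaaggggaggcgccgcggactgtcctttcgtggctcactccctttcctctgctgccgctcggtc
INSIG1 promoter, chr7:155297628-155297927, plus strand: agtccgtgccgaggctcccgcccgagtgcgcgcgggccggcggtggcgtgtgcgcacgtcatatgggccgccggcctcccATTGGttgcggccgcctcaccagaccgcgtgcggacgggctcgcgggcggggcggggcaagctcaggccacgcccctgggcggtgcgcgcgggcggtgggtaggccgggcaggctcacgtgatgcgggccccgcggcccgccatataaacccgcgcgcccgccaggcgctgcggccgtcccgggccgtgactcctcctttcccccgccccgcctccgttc

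Amino acid and stress genes changed in part. Over all genes tested, 5.89% were higher and 11.8% lower. The SLC7 and SLC3 list had 22.2% higher and 0% lower, and arginine and polyamine enzymes 0% and 18.8%. Stress response genes had 16.1% higher and 9.68% lower, the lower share being near that of all genes. NRF2 and detoxification genes had 16.1% and 19.4%. Of 9 SLC7 transporters and SLC3 partners, SLC7A2 and SLC7A11 rose and none fell, in edgeR's test and in DESeq2, nor was any lower at an unadjusted p under 0.05. SLC7A11, the cystine transporter, averaged 68.6 ± 4.00 CPM in clone 72, against 23.3 ± 5.23 in clone 98 and 24.3 ± 4.84 in clone 99 (log2 fold change 1.53 ± 0.22, adjusted p = 1.6e-05). The leucine transporter SLC7A5 (0.52 ± 0.11) and its partner SLC3A2 (0.51 ± 0.09) passed the p threshold and not the fold threshold. Of 16 arginine and polyamine enzymes, 3 fell and none rose in either tool, with 7 positive at an unadjusted p under 0.05. Of 31 genes of the integrated stress and unfolded protein responses, 5 rose and 3 fell, led by ATF3 (2.36 ± 0.23). Of 31 NRF2 and detoxification genes, 5 rose and 6 fell, with GSTM3 (2.87 ± 0.12) and OSGIN1 (2.73 ± 0.27) highest and HMOX1 at 1.20 ± 0.31.

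Interferon-stimulated genes were lower in part, while HLA-B and HLA-C were higher. The interferon list had 25.6% lower and 7.69% higher, against 11.8% and 5.89% over all genes tested. Antigen presentation genes had 7.14% lower and 14.3% higher. Of 39 interferon-stimulated genes, 10 fell and 3 rose (median -0.53, or -0.44 with genes at 0 counts set to their floor). IFITM3, a membrane protein that restricts virus entry, averaged 10.7 ± 0.848 CPM in clone 72, against 116 ± 12.9 in clone 98 and 83.2 ± 8.90 in clone 99 (log2 fold change -3.20 ± 0.13, adjusted p = 4.1e-19), and its neighbour IFITM2 had a log2 fold change of -3.75 ± 0.15. BST2, tetherin, averaged 0.0598 ± 0.0496 CPM in clone 72, against 3.08 ± 0.907 in clone 98 and 5.54 ± 1.21 in clone 99 (log2 fold change -6.04 ± 0.37, adjusted p = 2.8e-16). ISG15 fell (-2.58 ± 0.13) and OAS3, a sensor of viral RNA, rose on the mean of the pairs (log2 fold change 2.11 ± 0.07, adjusted p = 0.038), with 0.19 over clone 98 and 4.03 over clone 99. Among 14 antigen presentation genes, HLA-B (1.85 ± 0.05) and HLA-C (1.48 ± 0.06) rose and their activator NLRC5 fell (-3.70 ± 0.32), with reads that can be shared between HLA genes. HLA-B averaged 144 ± 0.770 CPM in clone 72, against 69.7 ± 5.77 in clone 98 and 22.7 ± 0.904 in clone 99. Of 28 inflammatory mediators, 4 rose and 3 fell (14.3% and 10.7%, against 5.89% and 11.8% over all genes tested), with TRAF1 at 64.5 ± 2.65 CPM in clone 72, against 13.2 ± 3.29 in clone 98 and 11.3 ± 6.52 in clone 99 (log2 fold change 2.40 ± 0.29, adjusted p = 3.6e-06) and IL32 at a log2 fold change of 3.27 ± 0.28.

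Proliferation genes did not pass the fold threshold. None of 35 S phase genes and none of 35 G2 and mitosis genes was called by edgeR or by DESeq2. At an unadjusted p under 0.05, 17 S phase genes were higher and 3 lower, and 18 G2 and mitosis genes were higher and 3 lower. At adjusted p under 0.05 without a minimum fold change, each list had 17 higher and 3 lower. Over all 19703 genes tested, 4157 were then higher and 4729 lower. The list medians were 0.29 and 0.28. PCNA, the sliding clamp of replication, averaged 203 ± 4.59 CPM in clone 72, against 92.7 ± 5.65 in clone 98 and 112 ± 12.2 in clone 99 (log2 fold change 0.99 ± 0.07), and MKI67 had 0.54 ± 0.06. Of 33 hypoxia and glycolysis genes, 3 fell (9.09%, against 11.8% over all genes tested) and none rose in edgeR or DESeq2, with 9 positive at an unadjusted p under 0.05, and NDRG1 averaged 0.160 ± 0.0814 CPM in clone 72, against 9.61 ± 2.13 in clone 98 and 17.7 ± 2.94 in clone 99 (log2 fold change -6.32 ± 0.30, adjusted p = 2.8e-18). Of 31 respiratory chain genes, ATP5F1A, a subunit of ATP synthase on chromosome 18, and NDUFA10 (1.00 ± 0.04) rose (1 of them also called by DESeq2) and none fell in either tool, with 5 negative at an unadjusted p under 0.05. Higher calls thus made up 6.45% of this list, near the 5.89% over all genes tested. ATP5F1A averaged 1925 ± 63.8 CPM in clone 72, against 436 ± 18.1 in clone 98 and 419.7 ± 28.6 in clone 99 (log2 fold change 2.17 ± 0.04, adjusted p = 5.7e-33).

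The called SOX and HOX transcription factor genes were all lower in clone 72. Lower calls made up 53.8% of SOX, 35.3% of HOX, 28.6% of GATA and T-box, 37.5% of small LIM-domain and 33.3% of histone genes. The share over all genes tested was 11.8%. Higher calls made up 0%, 0%, 7.14%, 12.5% and 7.41% in the same order, against 5.89% over all genes tested. Of 13 SOX genes, 7 fell and none rose in edgeR or DESeq2 (median -1.92, or -1.39 with genes at 0 counts set to their floor), with 1 positive at an unadjusted p under 0.05. SOX4 had 0.123, 0.0944, 0.213 and 0.118 CPM in the 4 clone 72 cultures, against 21.3, 26.4, 31.5 and 21.6 CPM in clone 98 and 21.3, 18.3, 22.4 and 16.8 CPM in clone 99 (log2 fold change -7.31 ± 0.29, adjusted p = 2.5e-20). Of 34 HOX genes, 12 fell and none rose in either tool or at an unadjusted p under 0.05. HOXB13 had no count in clone 72, against means of 0.0856 CPM in clone 98 and 2.00 CPM in clone 99, and HOXD3 had a log2 fold change of -3.30 ± 0.73. Of 14 GATA and T-box genes, 4 fell and GATA6, on chromosome 18, rose (log2 fold change 1.16 ± 0.10, adjusted p = 1.1e-10). Among 16 small LIM-domain genes, 6 fell and 2 rose, and CRIP1, a short LIM protein, had 0.319, 0.236, 0.142 and 0.118 CPM in the 4 clone 72 cultures, against 123, 166, 220.2 and 153 CPM in clone 98 and 181, 217, 214 and 158 CPM in clone 99 (log2 fold change -9.76 ± 0.25, adjusted p = 5.3e-25). The WT clones were near clone 72 for CRIP1, at 1.68 and 1.04 CPM. ANXA1, annexin A1, averaged 5.996 ± 0.569 CPM in clone 72, against 116 ± 18.6 in clone 98 and 76.5 ± 10.9 in clone 99 (log2 fold change -3.97 ± 0.20, adjusted p = 6.5e-16), and S100A16 had 1 count in clone 72, against means of 2.74 CPM in clone 98 and 26.8 CPM in clone 99. Of 27 replication-dependent histone genes, 9 fell and 2 rose, and the largest of these changes was a rise of H2BC9 (2.63 ± 0.13), with reads that near-identical copies can share.

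Higher genes were concentrated on part of chromosome 18. Of 195 protein-coding genes tested there, 66 were higher (33.8%), against 4.62% of the 13732 protein-coding genes put in order, and 15 were lower. Chromosome 6 held 71 higher genes among 706 (10.1%). Protein-coding genes in chromosome order were divided into 334 segments of about 40 genes, whose median log2 fold changes ran from -1.01 to 1.67, with 5th and 95th percentiles of -0.56 and 0.52. The highest was on chromosome 18, from FAM210A to MOCOS (chr18:13663347-36272157, GRCh38), where 37 of 49 genes were higher and 3 lower. Its median was 1.67 over clone 98 and 1.68 over clone 99. CDH2, MIB1, GATA6 and DSC2 lie in it. The next segment, from FHOD3 to MALT1, had a median of 1.01 with 25 of 49 genes higher, and holds SMAD2, SMAD7, ATP5F1A and TCF4.

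Relative to the median of the 10 lines of the series, the median gene of the FAM210A to MOCOS segment stood at 0.96 on the log2 scale in clone 72, against -0.32 in clone 98 and -0.44 in clone 99. It stood at -0.49 in JAG1 KO clone 35 and at 0.01 and 0.09 in WT clones 38 and 75. Over this stretch clone 72 was above, and clones 98, 99 and 35 were below, the WT clones. Of the 75 list genes that rose in clone 72, 8 lie on chromosome 18, namely ATP5F1A, CDH2, DSC2, GATA6, MIB1, SMAD2, SMAD7 and TCF4. Without genes of chromosome 18, the calls numbered 1070 higher and 2302 lower (an alternative chosen after seeing the data). Whether the number of copies of chromosome 18 differs between the clones was not tested.

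**Figure D5:**
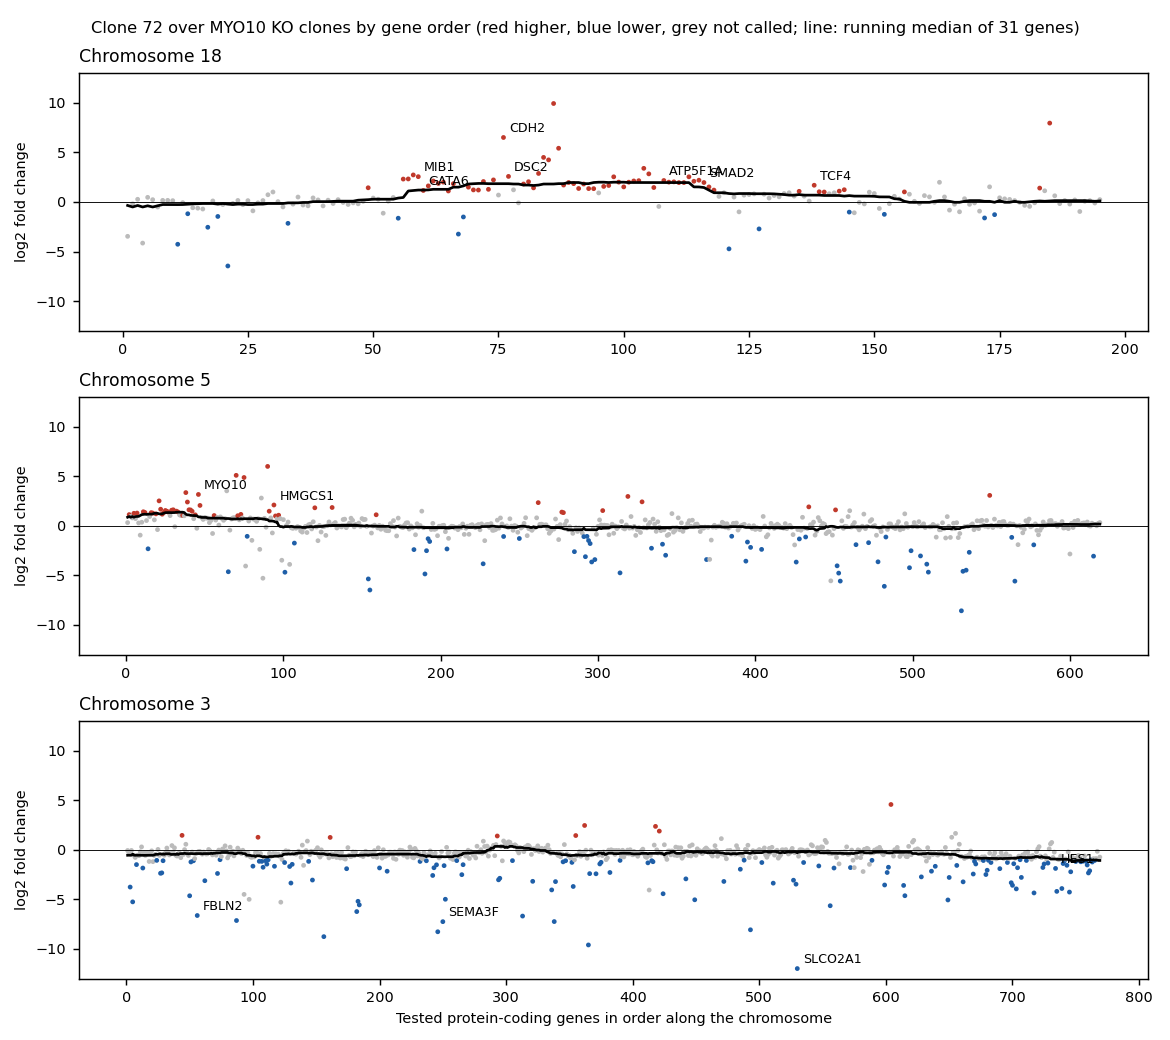
Log2 fold change of clone 72 over the MYO10 KO clones for each tested protein-coding gene, in gene order along chromosomes 18, 5 and 3 (horizontal axis, gene rank), with called genes in red (higher) and blue (lower) and the running median of 31 genes as a line. The line runs near 2 over a middle stretch of chromosome 18 that holds CDH2 and SMAD2, is above 0 at the start of chromosome 5 around MYO10, and falls below 0 at the end of chromosome 3.

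The start of chromosome 5, near MYO10, also stood apart. From PLEKHG4B to ANKH (chr5:92168-14871778), 25 of 42 genes were higher in clone 72, with a median of 1.242. That median differed between the pairs, at 0.85 over clone 98 and 1.61 over clone 99. The adjoining segment, which holds MYO10, had a median of 0.72, with 0.36 over clone 98 and 1.09 over clone 99, below the 3.17 of MYO10 itself. Relative to the median line the first segment stood at 0.40 in clone 72, against -0.35 in clone 98 and -1.15 in clone 99, with 0.14 and 0.10 in WT clones 38 and 75. The lowest segment was the end of chromosome 3 (chr3:193240606-198043720), with a median of -1.01 and 20 of 40 genes lower, and HES1 lies in it.

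Marker lists of other cell types differed between the clones, and their part in the results was not tested. The summed level of 8 fibroblast markers was 0.379 to 0.565 CPM in clone 72, against 1.58 to 3.14 in clone 98 and 0.615 to 1.57 in clone 99, and COL3A1, LUM and FAP were at 0 in clones 72 and 99. The 8 endothelial markers summed to 0.284 to 0.491 CPM in clone 72, against 9.56 to 10.1 in clone 98 and 7.72 to 10.2 in clone 99. In clones 98 and 99 most of the sum was ERG, a transcription factor also used outside endothelium, while CDH5 was at 0 in clones 72 and 98 and KDR at 0 in clone 99. Leukocyte markers summed to 57.6 to 64.8 CPM in clone 72, against 53.5 to 75.1 in clone 98 and 58.3 to 99.0 in clone 99, mostly the lysosomal gene CD68, with CD3E and MS4A1 at 0 throughout. The 9 neuronal markers summed to 113.8 to 122.9 CPM in clone 72, against 174.0 to 264.7 in clone 98 and 290.1 to 460.5 in clone 99, mostly TUBB3. Of 9 lung epithelial markers SFTPA1, SFTPC and SCGB1A1 were at 0 in all 3 clones, and the sum of the 9 was at most 1.25 CPM in any culture.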

How the data were processed

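RNA was column-purified and sequenced on a NovaSeq X-Plus, per the labels' protocols. The deposited gene counts were made by the authors with HTSeq 2.0.5, STAR 2.7.11b on build hg38, fastp 0.23.4, MultiQC 1.24.1 and FastQC 0.12.0 among the named tools, per the submitters' processing notes; the strand setting and annotation release are not given in the sources used here, so reads of overlapping antisense genes cannot be told apart. Counts of 59251 genes in 40 libraries were fitted with edgeR 4.0.16 in R 4.3.3 (TMM factors, robust quasi-likelihood, a minimum count of 10 by line, 1 coefficient for each of 10 lines, 30 residual degrees of freedom), which left 19703 genes with 99.96% of the counts. The p of a gene was the larger of those over clones 98 and 99, set to 1 where directions differed, and was adjusted by Benjamini-Hochberg over all 19703 genes. Standard errors cover the spread between cultures, not between clones. CPM use the TMM factors, which ran from 0.976 to 1.04 in the 12 libraries.

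The genes named were the targets, the 4 markers, the 12 called genes highest and the 12 lowest by the smaller fold change of the 2 pairs (at least 5 CPM in the higher group, clone-based, non-coding, antisense and pseudogene loci left out), and, per list, up to 4 called members with the largest change and members with a known role; a few of these are not reported here. The lists and members were chosen with earlier results of these data known. Most named genes were picked for large changes, so that groups did not overlap follows largely from this choice. Of 108 genes followed, 2 overlapped between the groups, and the share over all genes was not computed. Replicate counts differed by more than sampling noise in every pair of cultures (chi-square per degree of freedom 2.35 to 30.4), with Spearman correlations of at least 0.990. The method was tested on simulated counts. DESeq2 1.42.0, other scalings and filters, each culture left out, a replicate term and the clone as the unit were tried. Intervals and floors (3 counts) cover counting error only.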

Additional observations from a re-analysis of the deposited data

Results flagged for a closer look

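Of 324 sets of 4 cultures (108 genes in 3 clones), 13 held a culture whose gap to its nearest neighbour took up more of the range of the set than Dixon's 95% limit, and chance gives about 1 in 20. In clone 72, CDH2 was 123.9 CPM in culture 4, against 118 to 119 in the other cultures, MYO1E was 51.54 CPM in culture 2, against 48.7 to 48.9, NID2 was 49.7 CPM in culture 2, against 45.9 to 46.2, and VIM was 1020 CPM in culture 1, against 1078 to 1083. In clone 98, culture 1 was the lowest for BEND4 at 1.907 CPM, against 2.47 to 2.58, for FHL1 at 309.5 CPM, against 361 to 367, and for DHCR7 at 21.32 CPM, against 28.1 to 29.0. SERPINE2 in clone 98 was 29.65 CPM in culture 3, against 13.6 to 16.1. In clone 99, culture 4 was the highest for NPAS2 at 38.11 CPM, against 28.9 to 29.9, for FBLN2 at 32.32 CPM, against 20.2 to 21.02, and for NOTCH2 at 156.7 CPM, against 123 to 128. Culture 4 of clone 99 was the lowest for HES4 at 22.56 CPM, against 43.1 to 46.0. SMAD2 in clone 99 was 92.24 CPM in culture 1, against 84.9 to 85.8.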

How the results depend on the processing

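Named genes in this section are the targets and 106 others that were followed through every setting. They leave out some genes described above, among them DLK1, MMP2, ESPN, RNF43, BMP7, HOXB13 and S100A16. Whether those kept their calls was not tested. With 1 choice changed at a time, no direction turned among the genes followed. With counts summed per line and the clone as the unit, 247 genes were called higher and 547 lower in clone 72, all 794 among the original calls, and 5388 genes had an unadjusted p under 0.05; clone 72 is then a lone sample assumed to vary like the pairs of clones of the same label (2 residual degrees of freedom). Under it 37 of 106 named genes other than the targets lost their call (adjusted p 0.0507 to 0.226), namely ANXA1, BST2, CDH2, COL16A1, COL4A3, COL9A3, DSP, ERG, F11R, FN1, GATA6, GRHL1, HES2, HEY2, IL32, ITGA3, ITGAM, ITGB4, JUP, KRT15, LAMB1, MYO1E, MYO5C, NDRG1, NID2, NOTCH1, NPAS2, NRARP, PID1, PRRX1, RIN3, SEMA3F, SFRP1, SLC7A11, SMAD7, SPARC and THBS1. The cause was not tested. Without a minimum fold change 4157 genes were higher and 4729 lower, and clones 98 and 99 differed at 8762. With at least 1 CPM in the higher group (chosen after seeing the data), 1496 genes were lower and 802 higher, and clones 98 and 99 differed at 956, since low genes are then not counted. Leaving out 1 culture gave 1099 to 1182 higher and 2245 to 2347 lower genes, 1766 to 2006 between clones 98 and 99, and log2 fold changes of 3.14 to 3.20 for MYO10 and -3.88 to -3.76 for JAG1. DESeq2 gave 1124 higher and 2353 lower, library totals alone 1074 and 2428, no count filter 1218 and 2503, and the 12 libraries alone 1044 and 2130. Among the genes followed, SMAD7 lost its call with the 12 libraries alone (adjusted p = 0.10). Culture numbers did not pair the samples (correlations of same-numbered deviations -0.0457 to 0.328, 5 of 12 over 0.1, and 2 of 12 libraries correlating best with their own number). The fit with the replicate block gave 1175 higher and 2327 lower genes and 1885 between clones 98 and 99.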
